A study of Mus musculus with 16 samples.

Results

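The data compared whole livers of 6 female C57Bl/6 mice, of 16 samples measured in all. Each mouse had received 300 µg of concanavalin A and each liver was taken 2 h later. Mice 8, 9 and 10 had also been given 100000 adipose tissue derived stem cells through the tail vein immediately after the lectin, and mice 11, 12 and 13 had concanavalin A alone. The stem cells were grown in culture after collagenase digestion of inguinal fat of C57Bl/6 mice, so donor and host were of 1 strain. The 6 livers are all those with these treatment labels, and the comparison was chosen with earlier results of these data known. Livers of 6 further mice, killed 5 h after concanavalin A with stem cells given at 3 h or with none, entered the statistical fit to help estimate the spread between mice. No mouse without concanavalin A was measured, so every difference was one between livers of mice given the lectin.

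Concanavalin A is a plant lectin that crosslinks receptors on T cells. In the mouse liver it activates T and NKT cells, which release interferon-gamma, tumor necrosis factor and other cytokines, and macrophages, endothelium and hepatocytes respond with chemokines, interferon-induced proteins and acute phase proteins. Stromal cells from fat are studied as a treatment because in culture they can restrain T cells through soluble mediators. Type I interferons act through a transcription factor complex that contains IRF9 and binds the interferon-stimulated response element (ISRE). Interferon-gamma acts through factors that bind the gamma-activated site (GAS) and through IRF1, which again binds ISRE-like sequences.

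RNA was labelled with Cy3 and hybridised to Agilent mouse arrays, and every value below is a log2 signal from which the 75th percentile of the same array was subtracted, so that 0 is that percentile and each unit is a doubling. Of the spots, 57.9% to 62.5% lay well above background on the arrays with stem cells and 54.2% to 60.3% on those without. The 75th percentile itself was 253 to 295 intensity units with stem cells and 327 to 358 without, so the groups did not overlap in it. Each of 3 slides, scanned once each, held 1 liver of either group: mice 8 and 12, mice 10 and 11, and mice 9 and 13. On every slide the control liver lay in position 1 and the treated liver in position 2, so position and treatment cannot be told apart. Albumin (Alb) was among the brightest genes in all 6 livers, at 9.86 to 10.55, and the 24 measured hepatocyte markers had a median change of 0.08, against 0.07 over all 14349 genes tested.

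The question was which genes a simultaneous dose of stem cells raised or lowered at 2 h. With the spread between mice taken into account, 1 gene rose and 3 fell at an adjusted p under 0.05 (limma, 2-sided, Benjamini-Hochberg over all genes), which is 0.0279% of the genes tested (0.00697% higher and 0.0209% lower). The T cell gene Ptcra was higher with stem cells, and the decoy death receptor gene Tnfrsf23, the interferon-induced ubiquitin ligase gene Trim6 and the uncharacterised D330040H18Rik were lower. Below the adjustment, 806 genes (5.62%) had an unadjusted p under 0.05, 2.57% higher and 3.05% lower. The 3 treated and the 3 control livers did not overlap in 1176 genes (8.2%).

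Ptcra encodes the pre-T-cell receptor alpha chain, which pairs with the beta chain in developing thymocytes. Its values were -2.88, -3.63 and -3.73 in mice 8, 9 and 10 and -6.52, -6.00 and -5.97 in mice 11, 12 and 13. It was well above background in every treated liver and in no control liver. Its level with stem cells was thus at least 1.70-fold higher, a bound that sets the controls at the lowest signal still well above background. The fitted change, which takes the control values as measured, was 2.74 ± 0.24 (standard error, adjusted p = 0.00396, limma). A probe needed only 3 arrays well above background to be tested, so the treated livers alone could bring this one in. At 5 h, with stem cells at 3 h, the change was 2.04 ± 0.24 in the same direction (adjusted p = 0.0195). Its probe lies at chr17:46219187-46219247 on build mm8. None of the other 18 T cell markers measured passed the threshold, and the list's median change was 0.09.

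Tnfrsf23 encodes a decoy receptor for TRAIL, a ligand that can trigger apoptosis. Its values were -6.51, -6.29 and -6.53 in mice 8, 9 and 10 and -3.85, -3.59 and -4.21 in mice 11, 12 and 13. No treated liver and 2 of 3 control livers were well above background, so the treated livers were at least 1.34-fold lower (fitted change -2.56 ± 0.23, adjusted p = 0.00396, limma). Its neighbour in the same gene cluster, Tnfrsf22, another decoy receptor, was measured in every liver at -2.12, -1.44 and -2.61 in mice 8, 9 and 10 and -0.79, -0.84 and -1.40 in mice 11, 12 and 13, a change of -1.04 ± 0.27 that did not pass (adjusted p = 0.571, or 0.0482 without mice 10 and 13, which are described below). Both groups stood apart without overlap for either receptor. Of 29 measured genes of the death receptor and apoptosis list, 1 fell and none rose.

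D330040H18Rik was measured in all 6 livers, at -3.25, -3.43 and -3.25 in mice 8, 9 and 10 and -1.87, -1.78 and -1.69 in mice 11, 12 and 13. It fell by 1.53 ± 0.16 (adjusted p = 0.00726, limma), and the SD was 0.10 with stem cells and 0.09 without. The probe lies at chr16:52190631-52190690 on build mm8, and no function is assigned to the gene here. Trim6, an E3 ubiquitin ligase of the interferon response, stood at -3.57, -2.78 and -4.01 in mice 8, 9 and 10 and -0.75, -1.10 and -1.30 in mice 11, 12 and 13. It fell by 2.40 ± 0.30 (adjusted p = 0.0317, limma). The array carries 4 kept probes for Trim6, of which 3 were lower with stem cells and 1 was higher by 0.61, and the mean of the 4 differed by -1.33 (adjusted p = 0.534). Of the 3 lower probes, only the brightest, whose values are given above, was well above background in all 6 livers. The others were so in 2 of the 6 livers, whereas the higher probe was so in all 6.

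**Figure D1:**
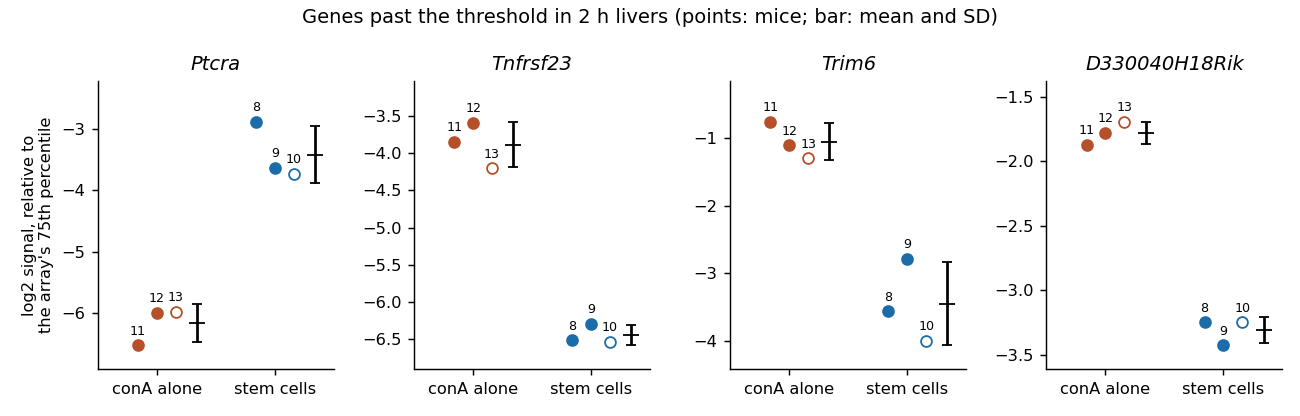
Signal on the log2 scale, with 0 at the 75th percentile of each array, for the 4 genes past the threshold, with mice 11, 12 and 13 (concanavalin A alone) on the left and mice 8, 9 and 10 (stem cells) on the right of each panel; points are mice, bars the group mean and SD. In each panel the groups are separate: Ptcra lies higher with stem cells and the other 3 genes lie lower.

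These 4 calls rested on the background treatment and on the 5 h livers. With background estimated anew by normexp none of the 4 passed, Tnfrsf23 turned to 0.49 and D330040H18Rik to 0.022. Fitted on the 6 livers alone, 0 genes passed in limma, with 552 at an unadjusted p under 0.05. The slide as a block left Trim6 at an adjusted p of 0.0827. Trim6 was also lost without mouse 8 (0.125), mouse 10 (0.0994), mouse 11 (0.232) or mouse 12 (0.161), and D330040H18Rik without mouse 8 (0.0512), mouse 9 (0.0571) or mouse 12 (0.0644), all adjusted p from limma.

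Apart from treatment, 1 liver of each group stood apart from the others in inflammatory genes. Mouse 10, with stem cells, and mouse 13, without, had lower signal than the other 4 livers in 9 of the 10 genes with the widest range over the 6 livers. The interferon-induced chemokine gene Cxcl10 was at 3.75 and 2.22 in mice 10 and 13, against 8.69 to 9.65 in the others. The neutrophil attractant gene Cxcl1 was at 1.63 and -0.70, against 5.91 to 6.51. Further genes of the 9 were Ccl7, Ccl11, Olr1, Socs1, Lcn2 and Ch25h. The exception was G0s2, an inhibitor of fat breakdown, at 2.74 and 4.09 in mice 10 and 13 and between -3.55 and -1.32 in the others.

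The same 2 livers were the lowest in whole gene lists. Over all genes tested, both lay below the other 4 in 2061 (14.4%) and above them in 3047 (21.2%). By over 1 log2 unit they lay below in 330 genes and above in 55. The count below the other 4 was 17 of 18 NF-kB targets, 16 of 18 neutrophil markers, 26 of 32 acute phase genes, 12 of 15 T cell cytokines and 17 of 22 chemokines. Among the T cell cytokines, Ifng, whose product drives macrophages, was at 1.79, 2.20 and 0.39 in mice 8, 9 and 10 and 3.34, 2.09 and -0.50 in mice 11, 12 and 13. The neutrophil granule gene S100a8 was at 4.38, 3.88 and 2.55 in mice 8, 9 and 10 and 3.67, 4.00 and 1.29 in mice 11, 12 and 13. Both genes were lowest in mouse 13 and next lowest in mouse 10. In hepatocyte markers both lay below the other 4 in 2 of 24 genes. As 1 such liver sat in each group, results are given below with all 6 livers and again with these 2 left out. Leaving them out was chosen with their inflammatory values known, and many of the genes then compared are of that kind.

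Of the 29 gene lists, the 2 of interferon-induced genes had the largest shares of members with a change below 0. With all 6 livers, 33 of 33 measured members of the type I list had one, against 37.8% of all genes, and the median change of the list was -0.93. Trim6 alone passed the threshold, 15 members had an unadjusted p under 0.05 (lower, 3.05% of all genes), and in 8 members every treated liver lay below every control liver (3.44% of all genes). Of 33 measured genes of the interferon-gamma response, 30 had a change below 0, with a median of -1.05. None of these passed, 6 had an unadjusted p under 0.05, and 2, Ciita and Nos2, did not overlap.

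Among the type I members, the RNA-binding antiviral gene Ifit2 was at -2.03, -1.90 and -1.61 in mice 8, 9 and 10 and 1.18, 0.10 and -1.17 in mice 11, 12 and 13. Its change was -1.88 ± 0.46 (adjusted p = 0.561, limma), with no overlap between the groups. Herc6, which attaches the ubiquitin-like protein ISG15 to other proteins, was at -2.69, -2.28 and -2.20 in mice 8, 9 and 10 and -0.11, -0.96 and -1.73 in mice 11, 12 and 13, a change of -1.46 ± 0.37 (adjusted p = 0.571). Isg20, an exonuclease gene, was at -0.68, -0.45 and -0.50 in mice 8, 9 and 10 and 1.04, 0.44 and -0.09 in mice 11, 12 and 13, a change of -1.01 ± 0.26 (adjusted p = 0.571). The dynamin-like antiviral gene Mx1 was well above background in 2 control livers and no treated liver, and was at least 1.76-fold lower (adjusted p = 0.571). Herc6, Isg20 and Mx1 were picked after their values were seen. In all of Ifit2, Herc6, Isg20 and Mx1, mouse 13 was the control nearest to the treated livers.

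A pattern of the individual livers ran through both lists. Mice 11 and 12, the other controls, had higher signal than all 4 remaining livers in 29 of 33 type I genes and 31 of 33 interferon-gamma genes, against 13.8% of all genes tested. In 23 of the 33 interferon-gamma genes and 10 of the 33 type I genes the order was mice 11 and 12, then 8 and 9, then 10 and 13 (7.28% of all genes). A list score was taken as the median over members after centring each gene on the 6 livers. For the type I list it was -0.45, -0.36 and -0.50 in mice 8, 9 and 10 and 0.89, 0.82 and -0.33 in mice 11, 12 and 13. For the interferon-gamma list it was -0.17, 0.06 and -1.44 in mice 8, 9 and 10 and 1.63, 1.38 and -1.13 in mice 11, 12 and 13. Within slides the type I median was -1.12, -1.54 and -0.026 on slides 1, 2 and 3, and the interferon-gamma median was -1.59, -3.08 and 1.29. Slide 3 pairs mouse 9 with mouse 13, and on it the interferon-gamma median lay above 0. Leaving out 1 liver moved the interferon-gamma median to -0.43 without mouse 10, -0.46 without mouse 11, -0.43 without mouse 12 and -2.04 without mouse 13, and the type I median to -0.60 without mouse 11.

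**Figure D2:**
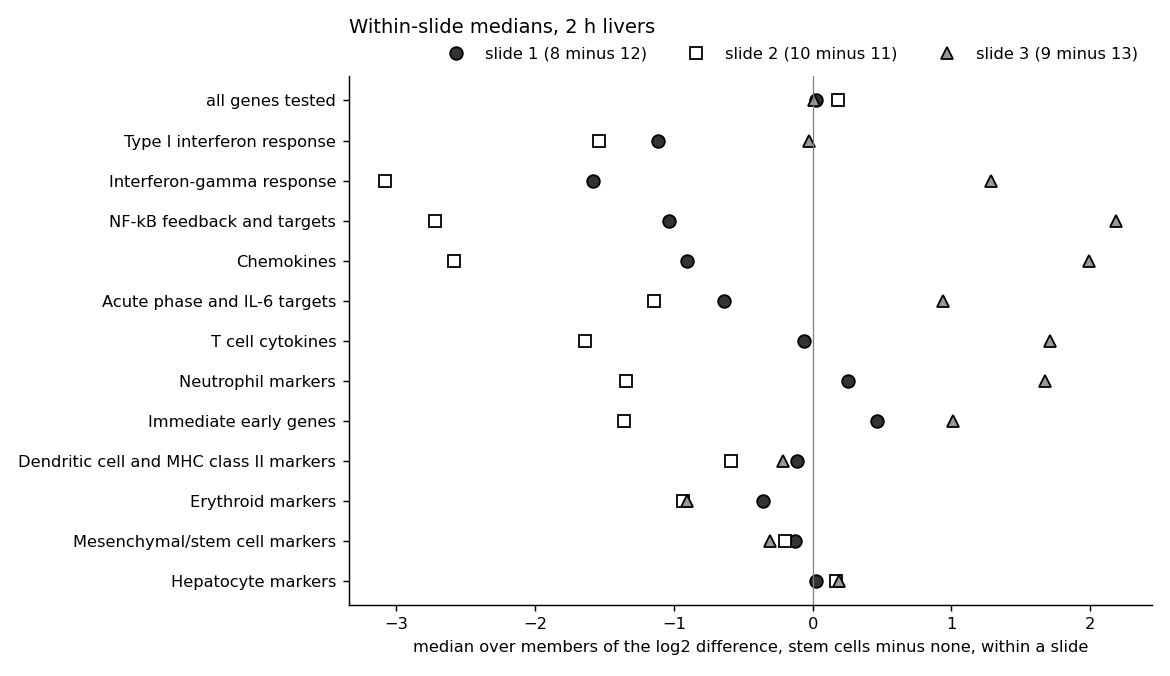
Median over the members of each list of the log2 difference, liver with stem cells minus liver without, on each of the 3 slides; the top row gives all genes tested. The type I interferon median is below 0 on each slide (-1.12, -1.54 and -0.026), while the interferon-gamma, NF-kB and chemokine medians are below 0 on slides 1 and 2 and above 0 on slide 3.

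The sequences just upstream of 5 interferon-induced genes are shown because both lists consist of targets of factors that bind there and the medians of both lay below 0. Each is the 250 bases before a RefSeq transcription start (build GRCm38.p6), read 5′ to 3′ on the gene's own strand. Capitals mark the ISRE core, which is GAAA, any 2 bases and GAAA, and the GAS core, which is TTC, any 3 bases and GAA. Both strands were searched, so that an ISRE core can also read as TTTC, any 2 bases and TTTC, while the GAS core reads alike on both.

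Ifit1, chr19:34640639-34640888: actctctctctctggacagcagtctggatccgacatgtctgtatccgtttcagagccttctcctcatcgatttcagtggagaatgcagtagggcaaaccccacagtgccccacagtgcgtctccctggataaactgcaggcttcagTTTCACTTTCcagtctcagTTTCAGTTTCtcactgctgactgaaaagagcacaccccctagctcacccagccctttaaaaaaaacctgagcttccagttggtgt
Gbp2, chr3:142620413-142620662: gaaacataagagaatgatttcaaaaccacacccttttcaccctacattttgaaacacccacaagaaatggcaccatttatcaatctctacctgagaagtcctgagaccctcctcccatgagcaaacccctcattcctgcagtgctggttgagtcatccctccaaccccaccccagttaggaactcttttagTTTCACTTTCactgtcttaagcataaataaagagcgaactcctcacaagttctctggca
Igtp, chr11:58199306-58199555: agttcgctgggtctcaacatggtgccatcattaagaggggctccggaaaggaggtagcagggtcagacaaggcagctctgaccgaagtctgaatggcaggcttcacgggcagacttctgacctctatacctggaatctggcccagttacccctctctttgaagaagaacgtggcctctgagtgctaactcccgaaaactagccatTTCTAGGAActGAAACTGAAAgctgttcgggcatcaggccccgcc
Socs1, chr16:10785537-10785786 (minus strand): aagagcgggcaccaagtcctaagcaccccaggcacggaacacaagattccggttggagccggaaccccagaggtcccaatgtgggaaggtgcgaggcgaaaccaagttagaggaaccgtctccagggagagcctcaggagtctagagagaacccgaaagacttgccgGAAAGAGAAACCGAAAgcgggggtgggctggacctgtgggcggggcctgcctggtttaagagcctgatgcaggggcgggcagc
Trim6, chr7:104218545-104218794: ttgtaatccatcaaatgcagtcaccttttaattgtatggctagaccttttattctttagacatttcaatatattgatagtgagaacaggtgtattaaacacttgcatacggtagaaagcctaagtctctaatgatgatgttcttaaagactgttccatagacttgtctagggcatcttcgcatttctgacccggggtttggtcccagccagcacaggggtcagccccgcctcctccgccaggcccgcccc

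Ifit1, an RNA sensor of the type I list, holds ISRE cores that begin at positions -104 and -85, counted from the start. Gbp2, a guanylate-binding GTPase, holds 1 that begins at -59. Igtp, an immunity-related GTPase, holds a GAS core at -45 and an ISRE core at -34, with 2 bases between them. Socs1, a feedback inhibitor of cytokine receptors, holds ISRE cores at -83 and -77, which overlap. The window of Trim6 holds neither run of letters, which says only that they are not in these 250 bases. An ISRE core stood in the window of 9 of 25 type I genes and 10 of 23 interferon-gamma genes that the promoter table holds, against 3.42% of 11102 tested genes in it. A GAS core stood in 5 of 25 and 8 of 23, against 7.37% of tested genes. The lists were drawn up for interferon genes, and these matches are descriptions of sequence.

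With mice 10 and 13 left out, 19 of 33 type I and 21 of 33 interferon-gamma genes fell. With the slide as a block, 16 and 17 fell. Mouse 13 was the control with the lowest type I score (-0.33, against 0.89 and 0.82 in mice 11 and 12). Its interferon-gamma score was -1.13, against 1.63 and 1.38, and it was left out with its inflammatory values known. For interferon and other inflammatory genes, the adjusted p values without these mice, here and below, therefore cannot separate treatment from the choice of livers. Mice 8 and 9 were then compared with mice 11 and 12, with the spread estimated from these and the 6 livers at 5 h. Of all genes, 449 (3.13%) passed an adjusted p of 0.05 (limma), 358 lower (2.49%) and 91 higher (0.634%). No gene of either interferon list rose. The median change was -1.28 in the type I list and -1.45 in the interferon-gamma list. The median over all genes was 0.08. Among members that fell, the largest changes were -2.61 for Ifit2 in the type I list and -3.41 for Ubd in the interferon-gamma list.

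Of the 8 largest falls among genes well above background in these 4 livers, 6 were of interferon-induced genes. Gbp2 was at 3.29 and 3.82 in mice 8 and 9, 6.79 and 6.43 in mice 11 and 12, and 0.81 and 1.23 in mice 10 and 13. Over the 4 livers it fell by 3.05 ± 0.25 (adjusted p = 0.00160, limma). Gbp6, Gbp8 and Gbp9, of the same GTPase family, fell by 2.68, 3.13 and 2.65. Members of this family are similar in sequence, and whether a probe reads more than 1 of them was not tested. Ubd, a ubiquitin-like modifier induced by interferon-gamma and tumor necrosis factor, was at -2.89, -2.05 and -3.21 in mice 8, 9 and 10 and 0.95, 0.93 and -2.62 in mice 11, 12 and 13. It fell by 3.41 ± 0.32 (adjusted p = 0.00196). The GTPase gene Ifi47 was at 3.49, 3.96 and 2.04 in mice 8, 9 and 10 and 6.44, 6.50 and 2.35 in mice 11, 12 and 13 and fell by 2.74 ± 0.27. The other 2 were Irak3, an inhibitor of Toll-like receptor signalling, which fell by 2.96, and the collagenase gene Mmp13, which fell by 3.29.

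Igtp, Ifit1 and Socs1, whose upstream sequences are printed above, fell as well in these 4 livers. Igtp was at 5.38, 5.46 and 4.57 in mice 8, 9 and 10 and 6.94, 6.97 and 4.64 in mice 11, 12 and 13 and fell by 1.53 ± 0.17 (adjusted p = 0.00336, limma). Ifit1 was at -0.18, -0.22 and -0.47 in mice 8, 9 and 10 and 2.44, 1.94 and -0.46 in mice 11, 12 and 13 and fell by 2.39 ± 0.32 (adjusted p = 0.00727). Socs1 was at 2.60, 3.14 and -1.89 in mice 8, 9 and 10 and 5.25, 5.02 and -2.08 in mice 11, 12 and 13 and fell by 2.27 ± 0.21 (adjusted p = 0.00196). In Ifit1 mouse 13 lay among the treated livers, whereas in Socs1 mice 10 and 13 lay far below all others. The T cell attractant gene Cxcl9 fell by 1.91 ± 0.25, Cd274, which encodes the inhibitory ligand PD-L1, fell by 1.94 ± 0.17, and Trim30a, an inhibitor of NF-kB signalling, fell by 1.66 ± 0.27. Igtp, Ifit1, Cd274 and Trim30a were chosen after their values were seen. Cxcl10 itself did not pass (change -0.71 ± 0.20, adjusted p = 0.122).

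**Figure D3:**
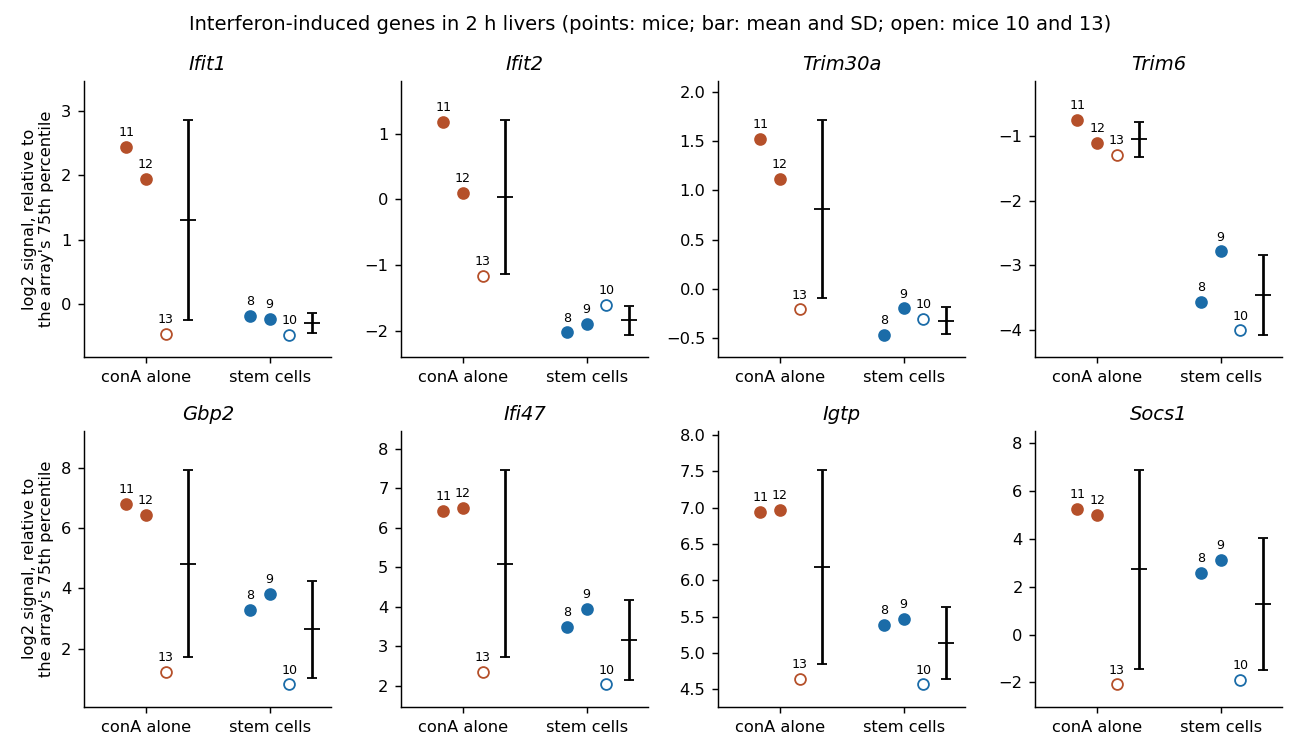
Signal on the log2 scale, with 0 at the 75th percentile of each array, for 4 type I interferon genes (top) and 4 interferon-gamma genes (bottom); points are mice, open points mice 10 and 13, bars the mean and SD of all 3. Mice 11 and 12 are highest in each panel, and mouse 13 lies within or below the range of the treated livers in each panel but Trim6 and Ifit2.

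The count of 449 genes needs the 5 h livers: with the 4 livers alone, 0 genes passed (smallest adjusted p = 0.0708, limma), with 2716 at an unadjusted p under 0.05. Leaving out mouse 13 alone gave 479 genes, of which 337 were among the 449, with 18 type I and 14 interferon-gamma genes lower. Leaving out mouse 10 alone gave 3 genes. Without mouse 13 alone, genes that missed the threshold with all 6 livers and then passed included Dpysl3, Rps6ka2, 1700016F12Rik, Hba-a1, Ciita, Postn, Cyp1a1, Il10, Ifna5, Tas1r2, Zfp597, 4930433I11Rik, Ppargc1b, Ifit2, Mx1, Herc6, Isg20, Vim and Tnfrsf22 (adjusted p from 0.00229 to 0.0432, limma). Among these genes, 1700016F12Rik was well above background in mouse 13 alone of the 6 livers. Without that mouse it was thus dim in every 2 h liver. Scaling by the array median in place of the 75th percentile, for the 4 livers, moved the median over all genes from 0.08 to -0.17 and gave 658 lower and 50 higher genes.

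Members of other inflammatory lists fell in these 4 livers as well, beside 2.49% of all genes. Of 18 NF-kB targets 5 fell, of 22 chemokines 4, of 32 acute phase genes 5 and of 29 death receptor and apoptosis genes 8, with none rising in any of the 4 lists. Mice 10 and 13 were left out with their inflammatory values known, so these falls cannot separate treatment from that choice. With all 6 livers no NF-kB target, chemokine or acute phase gene passed, and 1 death receptor and apoptosis gene fell. The necroptosis effector gene Mlkl was at -0.16, 0.03 and -0.22 in mice 8, 9 and 10 and 1.71, 1.62 and 0.03 in mice 11, 12 and 13 and fell by 1.73 ± 0.19 without mice 10 and 13 (adjusted p = 0.00324, limma). Casp8, the initiator caspase of death receptors, fell by 0.81 ± 0.16 (adjusted p = 0.0344). Both were chosen after their values were seen. Of 18 neutrophil markers 1 fell, Lcn2, which is also an acute phase gene. Of 15 T cell cytokines 1 rose, Il10, beside 0.634% of all genes, and none fell. Lcn2 was at 3.16, 3.44 and -1.31 in mice 8, 9 and 10 and 5.72, 5.95 and -2.11 in mice 11, 12 and 13. The neutrophil scores of mice 8 and 9 were 0.80 and 0.42, and those of mice 11 and 12 were 0.39 and 0.63.

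**Figure D4:**
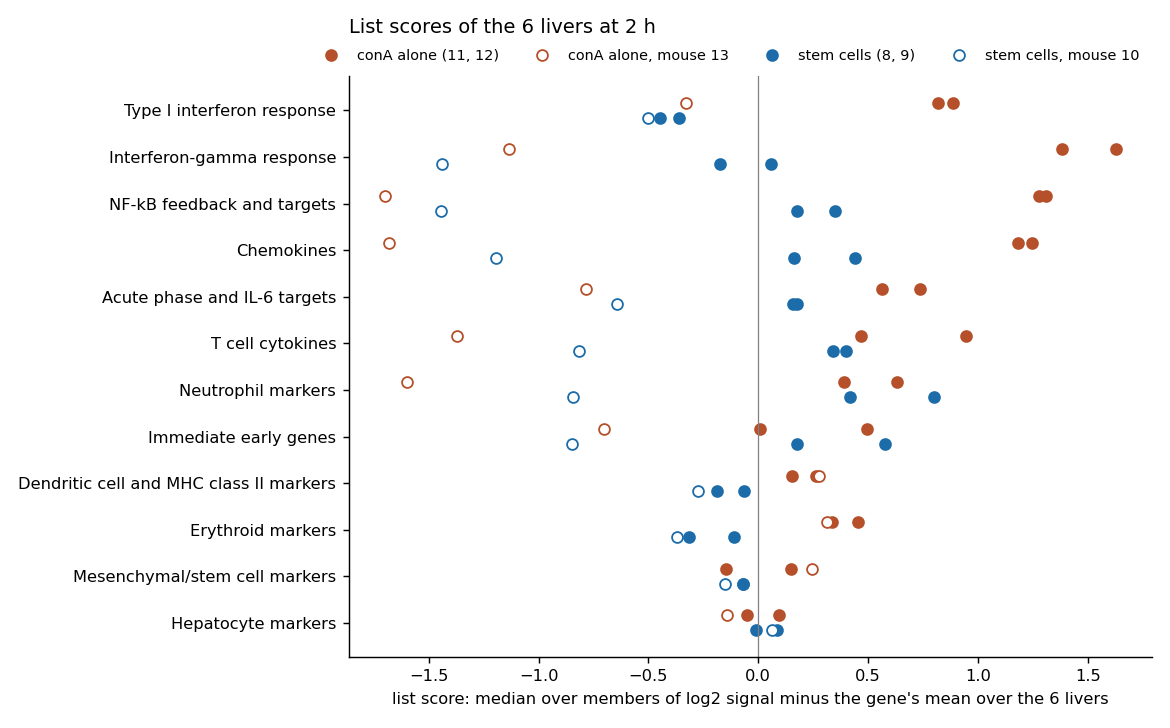
List score of each of the 6 livers (the median over members of log2 signal after each gene was centred on the 6 livers) for 12 lists; filled points are mice 8 and 9 (stem cells) and 11 and 12 (none), open points mice 10 and 13. In the inflammatory lists the open points lie far to the left, in the interferon lists mice 11 and 12 lie to the right of mice 8 and 9, and in the erythroid and MHC class II lists the groups do not overlap.

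The cytokines most often measured in this hepatitis showed no difference that passed. Of 22 measured genes of a panel of cytokines, chemokines, stromal mediators and acute phase markers none passed with all 6 livers (adjusted p from 0.136 to 0.998, limma), and 2 had an unadjusted p under 0.05. Tnf was at 0.39, 0.52 and -1.82 in mice 8, 9 and 10 and 1.51, 0.86 and -2.37 in mice 11, 12 and 13. Il6 was at 1.05, 1.54 and -0.65 in mice 8, 9 and 10 and 1.24, 0.43 and -4.99 in mice 11, 12 and 13. Il4 was at 0.93, 0.96 and -1.44 in mice 8, 9 and 10 and 1.35, 0.70 and -2.58 in mice 11, 12 and 13. In each the 2 groups overlapped and mouse 13 was lowest, with mouse 10 next. Il1b, an interleukin of macrophages, was at 3.70, 3.82 and 0.97 in mice 8, 9 and 10 and 3.25, 3.18 and -0.43 in mice 11, 12 and 13. The monocyte attractant gene Ccl2 was at 5.46, 5.62 and 1.75 in mice 8, 9 and 10 and 6.85, 6.34 and 0.34 in mice 11, 12 and 13. In both, mice 10 and 13 lay below the other 4 livers. Saa1, serum amyloid A, was at 9.03, 9.23 and 4.54 in mice 8, 9 and 10 and 9.79, 10.15 and 4.69 in mice 11, 12 and 13. Socs3, which restrains interleukin 6 signalling, was at 6.57, 6.41 and 2.36 in mice 8, 9 and 10 and 6.92, 6.43 and 2.56 in mice 11, 12 and 13. Mice 10 and 13 were again lowest in both. Of the mediators ascribed to stromal cells, Tgfb1 ran from -1.11 to -0.38 over the 6 livers and Hgf from -1.94 to -0.98, while Ido1 was not well above background in any. Tnfaip6, which encodes the hyaluronan-binding protein TSG-6, was at -2.42, -2.88 and -6.71 in mice 8, 9 and 10 and -0.60, -0.91 and -6.00 in mice 11, 12 and 13. Ptgs2, the inducible cyclooxygenase gene, was at -3.73, -4.32 and -6.46 in mice 8, 9 and 10 and -2.56, -3.69 and -5.72 in mice 11, 12 and 13. Of 22 measured genes of the list of stromal cell mediators none passed with all 6 livers. Without mice 10 and 13, 1 gene of that list rose (0.634% of all genes) and 3 fell (2.49%). The panel, a different set of 22 genes, had 3 that passed without mice 10 and 13 (3.13% of all genes). In the panel Il10 rose, and Cxcl9 and Tnfaip6 fell.

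Il10, the gene of the anti-inflammatory interleukin 10, had higher values with stem cells. Its values were -3.12, -2.81 and -2.24 in mice 8, 9 and 10 and -4.35, -4.43 and -4.14 in mice 11, 12 and 13. It was well above background in all 3 treated livers and in no control liver, so that the treated livers were at least 2.64-fold higher, with no overlap. This did not pass with all 6 livers (adjusted p = 0.136, limma), and passed without mice 10 and 13 (adjusted p = 0.0305). That call was lost with the slide as a block (adjusted p = 0.0834) and with quantile normalization (0.118). Mouse 10, low in inflammatory genes, had the highest Il10 of the 6. At 5 h the change in Il10 was 0.07 ± 0.26.

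Several other genes were well above background in treated livers only. Probes were kept if well above background on at least 3 arrays, the size of 1 group, so a gene that was bright in the treated livers alone could enter, and had then to differ. Of the 10 genes of smallest p among those higher without overlap, 8 were well above background in no control liver. The background for this is that 54 of the 683 genes higher without overlap (4.76% of all genes) were dim in all controls. Cyp1a1, the cytochrome P450 induced by the aryl hydrocarbon receptor, was at -3.24, -2.79 and -2.72 in mice 8, 9 and 10 and -4.56, -4.99 and -4.30 in mice 11, 12 and 13, at least 2.40-fold higher (adjusted p = 0.0809, limma). The chemokine receptor gene Cxcr4 was at -3.15, -3.64 and -3.63 in mice 8, 9 and 10 and -4.97, -4.51 and -5.17 in mice 11, 12 and 13, at least 1.60-fold higher (adjusted p = 0.427). The myeloid receptor gene Trem3 was at -3.89, -3.98 and -3.96 in mice 8, 9 and 10 and -4.88, -5.11 and -5.55 in mice 11, 12 and 13, at least 1.18-fold higher (adjusted p = 0.319). These 3 genes did not pass with all 6 livers. The arrays with stem cells had the lower 75th percentile given above, and its part in the values of genes near background was not tested. Ifna5, an interferon-alpha gene, Tas1r2, a sweet taste receptor gene, and 4930433I11Rik were at least 1.64-fold, 2.27-fold and 1.96-fold higher and did not pass either with all 6 livers. Cyp1a1, Ifna5, Tas1r2 and 4930433I11Rik rose without mice 10 and 13 (adjusted p = 0.0159, 0.0246, 0.0464 and 0.00652, limma), while Cxcr4 and Trem3 did not pass (0.124 and 0.0981). Zfp597, a zinc finger gene, differed by 0.90 ± 0.16 (adjusted p = 0.198). None of the other 6 measured aryl hydrocarbon receptor targets passed, and that list's median change was -0.05.

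Genes of red blood cells had lower values with stem cells, though none passed with all 6 livers. The alpha globin gene Hba-a1 was at 6.42, 6.04 and 6.48 in mice 8, 9 and 10 and 7.82, 7.29 and 7.68 in mice 11, 12 and 13. Its change was -1.28 ± 0.18 (adjusted p = 0.0809, limma), and both of its probes had the same sign. Every treated liver lay below every control. The beta globin gene Hbb-bt was at 7.70, 7.05 and 7.53 in mice 8, 9 and 10 and 8.46, 8.19 and 8.45 in mice 11, 12 and 13, a change of -0.94 ± 0.25 (adjusted p = 0.594). Globins carry oxygen and make up most of the protein of a red cell. Alas2, the first enzyme of haem synthesis in red cell precursors, was at 2.23, 2.00 and 2.29 in mice 8, 9 and 10 and 3.10, 3.01 and 3.23 in mice 11, 12 and 13, a change of -0.94 ± 0.20 (adjusted p = 0.394). The groups were separate in all 3 genes. The globin genes belong to families of near-identical copies, and which copy was read was not tested. Alas2 and Hbb-bt were chosen after their values were seen.

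Of 13 measured erythroid markers none passed, 10 had a change below 0 and 6 did not overlap, against 3.44% of all genes. Bpgm and Rhd were also among the 6. The median change was -0.47, and within slides it was -0.36, -0.93 and -0.91. Unlike the inflammatory lists, these genes did not set mice 10 and 13 apart: the scores were -0.11, -0.32 and -0.37 in mice 8, 9 and 10 and 0.46, 0.33 and 0.31 in mice 11, 12 and 13. In whole tissue, fewer cells of a type and less RNA per cell cannot be told apart, and how much blood each liver held was not measured. Without mice 10 and 13, Hba-a1 fell (adjusted p = 0.0199), and Epor, the erythropoietin receptor, rose by 0.71 ± 0.14. With the slide as a block Hba-a1 no longer passed (adjusted p = 0.0716).

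Genes of antigen presentation by MHC class II also had lower values, none past the threshold with all 6 livers. Ciita, the transcriptional coactivator on which class II expression depends, was at -1.90, -1.85 and -2.36 in mice 8, 9 and 10 and -0.71, -0.77 and -0.95 in mice 11, 12 and 13. Its change was -1.23 ± 0.19 (adjusted p = 0.0962, limma), and it passed without mice 10 and 13 (adjusted p = 0.0197), though not with normexp background (0.674). The class II chain gene H2-Ab1 was at 3.62, 3.43 and 3.40 in mice 8, 9 and 10 and 4.13, 3.73 and 4.27 in mice 11, 12 and 13, a change of -0.56 ± 0.15 (adjusted p = 0.658). Cd74, the invariant chain gene, was at 4.10, 3.56 and 3.67 in mice 8, 9 and 10 and 4.27, 4.16 and 4.28 in mice 11, 12 and 13, a change of -0.46 ± 0.17 (adjusted p = 0.806). Itgax, which encodes CD11c of dendritic cells, differed by -0.84 ± 0.20 (adjusted p = 0.513) on its brighter probe, while its other probe was higher by 0.24. H2-Ab1 and Cd74 were chosen after their values were seen. Of 21 measured markers of dendritic cells and class II none passed, 15 had a change below 0 (37.8% of all genes) and 6 were lower without overlap (3.44% of all genes). With mice 10 and 13 left out, 4 of the 21 fell (2.49% of all genes), Ciita, Irf8, Batf3 and Cd40. In that comparison 13 of the 21 had a change below 0, against 5780 of 14349 genes tested. The list's median change with all 6 livers was -0.43, and within slides it was -0.11, -0.59 and -0.21.

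With all 6 livers, no marker of the infused kind of cell passed in either direction. Of 30 measured mesenchymal, stellate and adipose stem cell markers, the median change was -0.17, 3 were lower without overlap (3.44% of all genes) and 0 were higher without overlap (4.76% of all genes). Without mice 10 and 13, 3 of the 30 fell (2.49% of all genes) and none rose (0.634%). The 3 were Postn (adjusted p = 0.0274, limma), Vim (0.0355) and Ly6a, the stem cell antigen Sca-1 (0.0436). Postn, a matrix protein of fibroblasts, was at -0.50, -0.45 and -0.43 in mice 8, 9 and 10 and 0.50, 0.29 and 0.24 in mice 11, 12 and 13, a change of -0.80 ± 0.13 (adjusted p = 0.136, limma). Vim, the intermediate filament vimentin, was at 1.87, 1.66 and 1.94 in mice 8, 9 and 10 and 2.44, 2.44 and 2.15 in mice 11, 12 and 13, a change of -0.52 ± 0.13 (adjusted p = 0.571). The list's scores ran from -0.15 to -0.07 with stem cells and from -0.15 to 0.25 without. Donor and host share 1 strain, so no donor transcript could be told from the host's. Of the other genes of smallest p that were lower without overlap, Dpysl3, a cytoskeletal regulator, differed by -0.90 ± 0.14 (adjusted p = 0.116). Rps6ka2, a ribosomal S6 kinase gene, and 1700016F12Rik were at least 1.53-fold and 1.58-fold lower and did not pass. Of the 3 controls, 2 were well above background in Rps6ka2 and only 1, mouse 13, in 1700016F12Rik. No treated liver was well above background in either. Of these genes, Dpysl3 and Rps6ka2 fell once mice 10 and 13 were left out (adjusted p = 0.0163 and 0.0141, limma).

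Several genes with higher values take part in liver metabolism. Ppargc1b, a coactivator of mitochondrial and lipid genes, was at 2.15, 2.11 and 2.19 in mice 8, 9 and 10 and 0.45, 0.33 and 1.47 in mice 11, 12 and 13, a change of 1.40 ± 0.29 (adjusted p = 0.351, limma) with all 3 probes of 1 sign. It passed without mice 10 and 13 (change 1.74 ± 0.23, adjusted p = 0.00727). Its relative Ppargc1a, which drives gluconeogenesis in fasting, was at 1.70, 1.22 and 0.79 in mice 8, 9 and 10 and 0.20, 0.08 and 0.08 in mice 11, 12 and 13, a change of 1.11 ± 0.28 (adjusted p = 0.571). The groups did not overlap in either coactivator. G6pc, the enzyme that releases free glucose, was at 6.95, 5.75 and 6.84 in mice 8, 9 and 10 and 3.41, 3.28 and 6.12 in mice 11, 12 and 13. Mice 11 and 12 were low in it and mouse 13 lay with the treated livers. Without mice 10 and 13 G6pc rose by 3.01 ± 0.43 (adjusted p = 0.00966), and Klf15, a transcription factor of amino acid and glucose metabolism, rose by 2.14 ± 0.32 (adjusted p = 0.0114). Klf15 was at 3.86, 3.61 and 4.83 in mice 8, 9 and 10 and 1.49, 1.70 and 4.43 in mice 11, 12 and 13. In Klf15, too, mouse 13 lay with the treated livers. Neither gene passed with all 6 livers (adjusted p = 0.695 for G6pc and 0.869 for Klf15, limma). Of 30 measured genes of hepatic metabolism 24 had a change above 0 with all 6 livers, against 8924 of 14349 genes tested, and none passed. Without mice 10 and 13, 2 rose, G6pc and Srebf1 (0.634% of all genes). In that comparison 17 of 30 had a change below 0, against 5780 of 14349. The list's median was 0.10 with all 6 livers, -0.067 without mice 10 and 13, -0.14 within slide 1 and -0.35 with normexp background. Its sign thus depended on the setting.

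The other genes among the 8 largest rises without mice 10 and 13 were Spata2l, Rapgef3, Pth1r, D7Ertd443e and Hhex. Spata2l rose by 3.92 ± 0.70, with values of 1.53, 0.97 and 2.24 in mice 8, 9 and 10 and -2.62, -2.72 and 1.94 in mice 11, 12 and 13. Hhex, a homeobox gene of liver and endothelium, was at 0.33, -0.42 and 1.85 in mice 8, 9 and 10 and -1.58, -1.60 and 1.45 in mice 11, 12 and 13 and rose by 1.54 ± 0.32 (adjusted p = 0.0405, limma). In both genes mice 10 and 13 were the highest of the 6 livers, and mice 11 and 12 were the lowest. Rapgef3, an exchange factor activated by cyclic AMP, rose by 1.82 ± 0.29, the parathyroid hormone receptor gene Pth1r by 1.68 ± 0.29, and D7Ertd443e by 1.68 ± 0.33. In Rapgef3 and Pth1r the omitted control, mouse 13, was the highest of the 6 livers, at 0.65 and 2.48. The treated livers ran from 0.21 to 0.42 and from 0.93 to 1.93. In D7Ertd443e mouse 13, at -2.86, lay within the range of the treated livers, -3.41 to -2.08. Rapgef3, Pth1r and D7Ertd443e did not pass with all 6 livers (adjusted p = 0.869 for each, limma). Without mice 10 and 13, 1 of 23 Kupffer cell and macrophage markers rose (0.634% of all genes) and 2 fell (2.49%). Their median change was then -0.044, and none passed with all 6 livers.

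**Figure D5:**
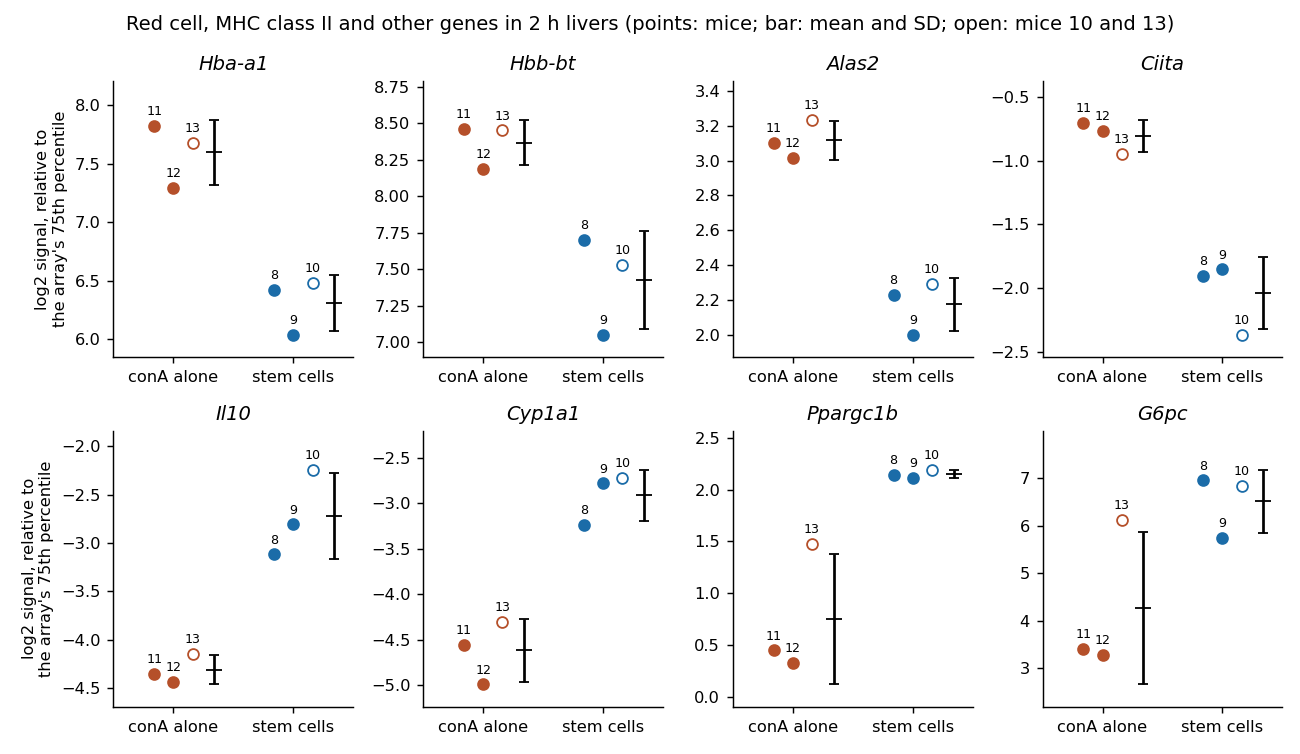
Signal on the log2 scale, with 0 at the 75th percentile of each array, for genes of red cells (Hba-a1, Hbb-bt, Alas2), MHC class II (Ciita), and 4 genes higher with stem cells; points are mice, open points mice 10 and 13, bars the mean and SD. The groups are separate in each panel except G6pc, where mouse 13 lies with the treated livers.

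Of the 29 gene lists, 26 had no member past the threshold with all 6 livers, and 21 had at least 1 without mice 10 and 13. At 5 h, where stem cells had been given 3 h after concanavalin A, the median change of the type I list was -0.32 and that of the interferon-gamma list -0.42, and the erythroid and class II medians were 0.21 and 0.17. Tested gene by gene, the 2 h effect differed from the 5 h effect in 2 of all genes tested (0.0139%, limma), Tnfrsf23 and Gimap5. No gene of the 2 interferon lists was among them, so a difference between the schedules in those lists was not shown.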

How the data were processed

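Agilent mouse arrays measured total RNA of 12 livers and 4 samples of hepatic inflammatory cells, the latter not used here. The deposited scanner files hold spot intensity on a linear scale with background subtracted. Per the submitters' processing notes and the headers, the software was Agilent Feature Extraction, version 10.5.1.1. Between arrays nothing had been adjusted, and the series table of the authors repeats these intensities (largest difference 0). Aligned probe positions are on build mm8, per the file headers. The 1639 control spots of each array were dropped, and of its 43379 other spots 0 were saturated.

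Log2 of the processed signal was taken minus the array's 75th percentile, outlier spots (55 to 100 per liver array) were masked, and repeat spots of each of 41174 probes were averaged. A probe was kept if well above background on at least 3 of 12 liver arrays. Symbols came from the design's accessions and names through RefSeq (GRCm38.p6), with 6898 probes unnamed, and a gene was read by its brightest kept probe. Where a gene's probes disagreed, the text says so. The 12 liver arrays shared 1 limma fit of 4 group means (limma 3.58.1, R 4.3.3, lmFit and eBayes, 2-sided, threshold 0.05), checked on simulated arrays, and every adjusted p is Benjamini-Hochberg over the genes tested. The labels number the mice, so samples are separate animals, and the number of arrays limits the precision. "At least" folds set the dim group, array by array, at the higher of the gene's signal and the lowest signal well above background. An adjusted p printed beside such a fold belongs to the fitted change and not to the bound.

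The livers, lists and the rule for named genes were chosen with earlier results of these data known. The rule took genes past the threshold, the 10 of smallest p in each direction among genes without overlap, the 2 of smallest p in each list, a panel of cytokines and liver genes, the 8 largest rises and falls without mice 10 and 13, and the 10 of widest range. Of the genes it took, those that add values not already shown are described, and some are not reported here. Alternatives were normexp (offset 50), quantile and median scaling, other filters, the slide as a block, array weights, the mean of a gene's probes, kept outlier spots, the 6 livers alone, and each liver left out. Settings of the comparison without mice 10 and 13 were chosen after seeing the data.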

Additional observations from a re-analysis of the deposited data

Results flagged for a closer look

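The effect of stem cells on Tnfrsf23 differed between the 2 schedules in a test of the difference itself. It was -2.56 ± 0.23 at 2 h and 0.56 ± 0.23 at 5 h, a difference of -3.12 ± 0.33 (adjusted p = 0.0325, limma). The gene was well above background in all 6 livers at 5 h, in 2 of 3 control livers at 2 h and in no treated liver at 2 h, so the 2 h end of the difference is a bound. The effect on Gimap5, a GTPase gene of lymphocytes, was -0.11 ± 0.17 at 2 h and 1.90 ± 0.17 at 5 h, a difference of -2.01 ± 0.23 (adjusted p = 0.0364, limma). A second Gimap5 probe gave -1.00 at 2 h and -0.04 at 5 h.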

How the results depend on the processing

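The 4 genes called with all 6 livers became 0 with normexp background, 0 with the 6 livers alone and 294 with array weights, and 2 to 479 when each liver was left out in turn, the lowest without mouse 8 or mouse 12 and the highest without mouse 13. Without mice 10 and 13 they were 449. The normexp count came with 1852 genes at an unadjusted p under 0.05. With normexp the change turned positive for Tnfrsf23 (0.49), D330040H18Rik (0.022), Dpysl3 (0.066), Rps6ka2 (0.61), 1700016F12Rik (0.47) and Mx1 (0.37); the cause was not tested. The 2 genes whose effect differed between 2 h and 5 h became 0 with normexp, array median scaling, no filter, the filter on the 6 livers or the slide as a block, with 225 to 772 genes at an unadjusted p under 0.05 in limma. They were 1 with the mean of probes, 0 to 22 with 1 liver left out (the highest without mouse 13, 0 without any other) and 72 without mice 10 and 13. The 449 genes called without mice 10 and 13 became 0 with those 4 livers alone, 209 with normexp, 708 with median scaling, 751 with array weights and 279 with no filter. With the slide as a block they were 374, and the type I and interferon-gamma genes that fell were 16 and 17. The median change of the type I list moved to -1.54 within slide 2 and -0.026 within slide 3, and that of the interferon-gamma list to -3.08 and 1.29. With 1 liver left out these medians ran from -1.30 to -0.60 and from -2.04 to -0.43. Values of genes near background, such as Ptcra, Tnfrsf23 and Il10, are limited by signal over background, and 3 livers a group limit every test. No paired analysis by replicate number was possible because the labels give each mouse its own number, and the slide, which holds 1 liver of each group, was used as a block instead.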
